A study of Mus musculus with 16 samples.

Results

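Levels of 7 mature microRNAs (miRNAs) tied to neuronal excitability and seizures were compared between PS19 and wild-type (WT) mice in the prefrontal cortex. They were taken by name from a table of non-coding RNAs as the rows mmu-miR-129-5p, mmu-miR-129-1-3p, mmu-miR-129-2-3p, mmu-miR-139-5p, mmu-miR-324-5p, mmu-miR-335-5p and mmu-miR-335-3p, 7 of its 1241 mature miRNA rows and of its 18488 rows in all. PS19 mice, labelled PS19+/-, were heterozygous for a human tau (MAPT) transgene with a frontotemporal dementia mutation, driven by the mouse prion promoter, so that mutant human tau is made on top of mouse tau and broadly in the nervous system. WT animals were littermates without the transgene, and both groups were on a mixed C57BL/6 and C3H background. Each group held 8 mice with 1 library each, at a single age late in the first year of life. The study used equal numbers of males and females, and the sex of each library was not given in the sources used here.

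A miRNA is cut from a hairpin precursor, and either the 5′ arm (5p) or the 3′ arm (3p) can be loaded into Argonaute, where its seed near the 5′ end pairs with messenger RNAs and lowers their translation or stability. Several of these miRNAs are known to act on ion channels. miR-129-5p represses the potassium channel gene Kcna1, miR-324-5p represses the potassium channel gene Kcnd2, and miR-335-5p represses voltage-gated sodium channel genes, while miR-139-5p is known from epilepsy models as a regulator of NMDA receptor subunits. Blocking miR-129-5p or miR-324-5p is known to dampen seizures in rodents.

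The mature sequences show which of the rows share a hairpin and what each could pair with. RefSeq (GRCm38.p6) held a mature sequence for 6 of the 7 names, and they are given 5′ to 3′ with the seed, bases 2 to 8, in capitals.
mmu-miR-129-5p: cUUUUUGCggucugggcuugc
mmu-miR-129-2-3p: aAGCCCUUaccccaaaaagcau
mmu-miR-139-5p: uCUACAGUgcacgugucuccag
mmu-miR-324-5p: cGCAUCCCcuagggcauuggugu
mmu-miR-335-5p: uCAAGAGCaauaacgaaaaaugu
mmu-miR-335-3p: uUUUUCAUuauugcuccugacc
The 6 seeds all differed from one another, and 0 other names among the 1679 mature mouse miRNAs of RefSeq carried any of them. The name mmu-miR-129-1-3p had no entry, so its seed was not compared.

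The miR-129 and miR-335 hairpins are shown because their arms were set against each other. The arms with a mature RefSeq entry are in capitals.
Mir129-1: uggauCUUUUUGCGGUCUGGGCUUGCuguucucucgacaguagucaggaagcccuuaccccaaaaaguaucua
Mir129-2: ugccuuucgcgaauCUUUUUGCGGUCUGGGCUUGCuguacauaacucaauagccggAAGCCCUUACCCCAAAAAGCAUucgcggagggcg
Mir335: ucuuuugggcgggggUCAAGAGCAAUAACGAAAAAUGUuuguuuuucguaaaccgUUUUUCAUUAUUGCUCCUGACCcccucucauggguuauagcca
The 5p arm of miR-129 is the same 21 bases in both miR-129 hairpins, so a read of it cannot be assigned to one locus. The 3p arms of the loci are close copies. Bases 1 to 19 of the 22 in mmu-miR-129-2-3p, seed included, also occur in the Mir129-1 hairpin, so a shortened 3p read could come from either, and the split between both 3p rows is uncertain to that extent.

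On GRCm38, Mir129-1 lies at chr6:29022619-29022691 on the plus strand, within an exon of the long non-coding RNA gene Gm3294. Mir129-2 lies at chr2:94241364-94241453 on the minus strand, in an intron of Mir670hg. Mir335 lies at chr6:30741299-30741396 on the plus strand in an intron of Mest, an imprinted gene transcribed in the same direction. Mir139 (chr7:101475376-101475443, plus strand) is intronic to Pde2a, a phosphodiesterase gene, and Mir324 (chr11:70012043-70012131, plus strand) overlaps exons of 2 Dvl2 transcripts and, on the other strand, an intron of Acadvl.

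Recovered reads ranged from 13.2 to 23.1 M per library, of which 2.69 to 7.51 M were miRNA reads. The miRNA share of the signal averaged 25.5% ± 5.40 (SD, n = 8) in PS19 and 26.3% ± 6.24 (n = 8) in WT, and spanned 15.0% to 32.6% over all 16 libraries. Values are a normalized signal, the read count divided by 1 size factor per library that all rows of the table share, so a library poor in miRNA as a whole also reads low for each miRNA. The lowest miRNA shares were 15.0% in WT replicate 7, 18.2% in PS19 replicate 8, and 20.4% in both WT replicate 6 and PS19 replicate 7, and WT replicates 6 and 7 had the fewest miRNA reads, 2.69 and 3.21 M. In bulk tissue, fewer cells of a type and less of a miRNA per cell cannot be told apart. The summed signal of 5 neuronal miRNAs (among them miR-124-3p, miR-9-5p and miR-128-3p) was 294699 to 1026143 in PS19 libraries and 341530 to 953149 in WT libraries, so neuronal miRNAs were abundant in every library.

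All 7 miRNAs passed the filter of a mean signal of at least 5, and none passed the test between genotypes. In limma on log2(signal + 1), 0 of 7 had an adjusted p under 0.05, against 0.0% of the 6024 tested features, and 0 of 7 had an unadjusted p under 0.05, against 4.0% of them. DESeq2 and the edgeR quasi-likelihood test on recovered reads also gave 0 of 7 by adjusted p, against 0.407% of the 3689 features to which DESeq2 gave one and 0.0% in edgeR. By unadjusted p each called 1 of 7, mmu-miR-335-5p, against 4.7% of all tested features in DESeq2 and 4.4% in edgeR. All 7 estimates were below 0, that is lower in PS19, and 53.2% of all tested features were below 0 too, as were 66.9% of the 750 tested miRNA rows. The median log2 difference was -0.35 over the 7, -0.12 over the tested miRNA rows and -0.02 over all tested features. Both arms of miR-335 had the lowest estimates, and mmu-miR-129-5p and mmu-miR-324-5p lay closest to 0.

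**Figure D1:**
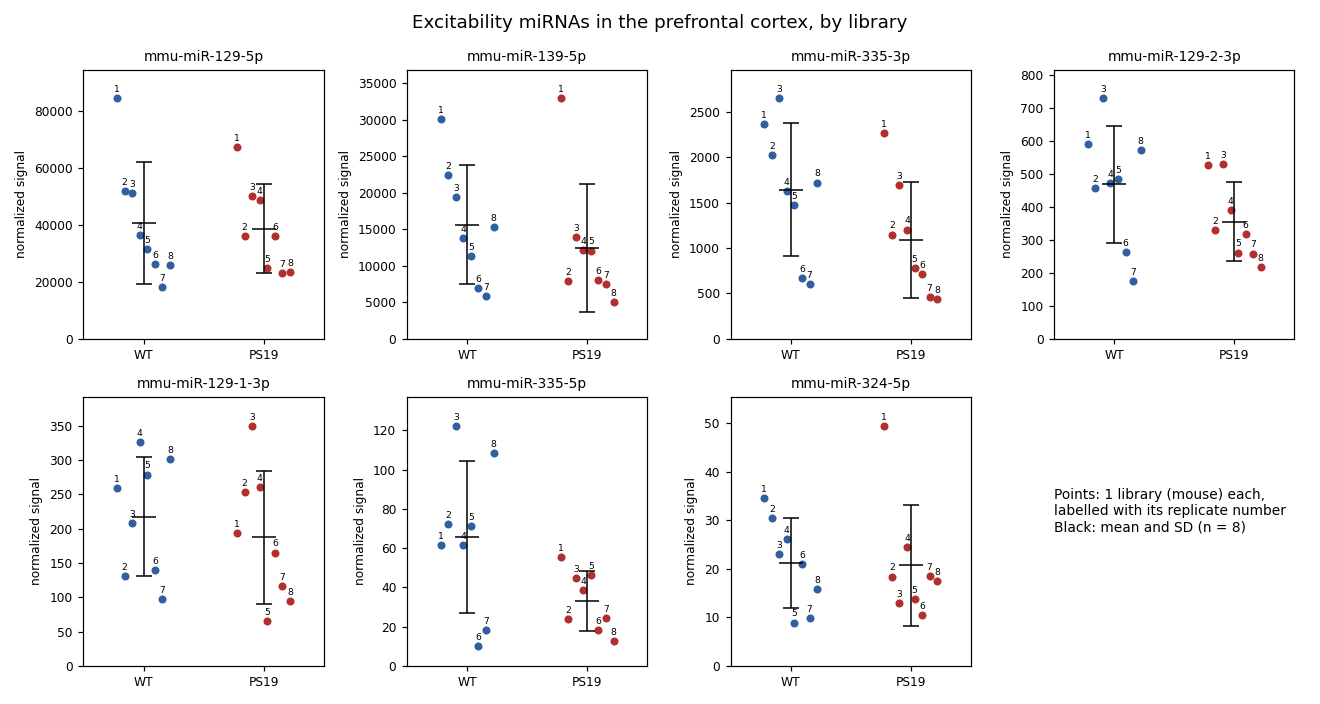
Normalized signal (y axis, linear from 0, own scale per panel) of each miRNA in the 8 WT (blue) and 8 PS19 (red) libraries, numbered by replicate, with the mean and SD in black. The genotypes overlap in all 7 panels, and for mmu-miR-335-5p 6 of 8 WT libraries lie above the highest PS19 library at 55.3.

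The miR-335 pair stood lowest in PS19. mmu-miR-335-5p, the arm known to repress sodium channel genes, had a lowest, median and highest signal of 12.4, 31.4 and 55.3 in PS19 and of 10.0, 66.4 and 122.3 in WT. All 8 PS19 libraries lay below the WT median and 6 of 8 WT libraries lay above the highest PS19 library, while WT replicates 6 and 7, at 10.0 and 18.4, lay among or under the PS19 libraries. Means were 32.9 ± 15.3 (SD, n = 8) in PS19 and 65.7 ± 38.7 (n = 8) in WT, and the fitted PS19 to WT fold was 0.581 with a 95% interval of 0.310 to 1.09. The log2 difference of -0.78 ± 0.44 (SE) did not pass in limma (p = 0.0869, adjusted p = 0.9998) or in a two-sided exact permutation test over the 12870 assignments of libraries (p = 0.138, n = 8 each).

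mmu-miR-335-3p, the other arm, was far more abundant. Its lowest, median and highest signals were 435, 965 and 2271 in PS19 and 600, 1677 and 2651 in WT. The PS19 range reached into the upper WT range through replicate 1, 6 of 8 PS19 libraries lay below the WT median, and 2 lay below the lowest WT library. The mean was 1088 ± 637 in PS19 and 1644 ± 732 in WT (SD, n = 8 each), a fitted fold of 0.639 (95% interval 0.379 to 1.08). For mmu-miR-335-3p the log2 difference of -0.65 ± 0.36 gave a limma p of 0.0894 (adjusted p = 0.9998) and an exact permutation p of 0.136. The precursor row mmu-mir-335 had means of 45.9 ± 37.2 in PS19 and 62.6 ± 31.9 in WT, with a log2 difference of -0.67 ± 0.44 (limma p = 0.146, exact permutation p = 0.212). All 3 readouts of the hairpin thus had estimates of like size, and none of them passed.

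The miR-335 values depended on which libraries were compared. With WT replicate 6 left out, mmu-miR-335-5p had an estimate of -1.11 on the log2 scale (limma p = 0.00709, exact permutation p = 0.0205, adjusted p = 0.983), and with WT replicate 7 left out one of -0.99 (limma p = 0.0301, exact permutation p = 0.0667, adjusted p = 0.936). For mmu-miR-335-3p the estimate was -0.81 without WT replicate 6 (limma p = 0.0359, exact permutation p = 0.0712), -0.83 without WT replicate 7 (limma p = 0.0271, exact permutation p = 0.0583) and -0.83 without PS19 replicate 1 (limma p = 0.0281, exact permutation p = 0.0586). The estimates nearest to 0 were -0.61 for mmu-miR-335-5p without WT replicate 3 (exact permutation p = 0.242) and -0.49 for mmu-miR-335-3p without PS19 replicate 8 (exact permutation p = 0.248). Among the single omissions, the unadjusted limma p of mmu-miR-335-5p was under 0.05 only without WT replicate 6 or WT replicate 7. That of mmu-miR-335-3p was under 0.05 only without WT replicate 6, WT replicate 7 or PS19 replicate 1. All adjusted p stayed above 0.05.

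Library codes in the labels began with G for all 8 PS19 libraries and for WT replicates 2 and 4, with F for 4 WT libraries and with A for 2. No source used here says what the letter marks. Letter and genotype therefore overlap, and F and A held WT libraries only. Both WT libraries coded G, at 72.3 and 61.3, lay above all 8 PS19 libraries for mmu-miR-335-5p, with a log2 difference within G of -1.14 (limma p = 0.0336, exact permutation p = 0.0889 over 45 assignments, adjusted p = 0.9997). With the letter as a term across all 16 libraries the limma p was 0.0731. The estimate of that fit is the within-G difference by construction, as F and A held WT libraries only, so it adds no second result. For mmu-miR-335-3p the WT libraries coded G stood at 2023 and 1632 and PS19 replicates 1 and 3 lay above the lower of them, with a within-G log2 difference of -0.96 (exact permutation p = 0.222). The estimate within G was also further from 0 than over all libraries for the other members, at -0.73 for mmu-miR-139-5p, -0.58 for mmu-miR-324-5p, -0.46 for mmu-miR-129-2-3p, -0.33 for mmu-miR-129-1-3p and -0.27 for mmu-miR-129-5p, with exact permutation p from 0.244 to 0.622.

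As a share of the miRNA signal, which takes out how much miRNA a library held, the members spread less within a genotype, to unlike degrees. The within-group SD of mmu-miR-335-3p on the log2 scale was 0.82 with the deposited size factors and 0.30 with every RNA class set to a common total (class totals). For mmu-miR-129-2-3p it went from 0.58 to 0.20 and for mmu-miR-129-5p from 0.64 to 0.28, while for mmu-miR-324-5p, with the fewest reads, it was 0.67 and 0.59. Most of the spread of the abundant members between mice of one genotype was thus shared with the miRNA class as a whole.

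On that scale mmu-miR-335-3p made up 0.0166%, 0.0218% and 0.0323% of the miRNA signal in PS19 and 0.0250%, 0.0344% and 0.0427% in WT (lowest, median, highest). All 8 PS19 libraries lay below the WT median, 5 of 8 below the lowest WT library, and 6 of 8 WT libraries above the highest PS19 library. The mean share was 0.0229% ± 0.00515 in PS19 and 0.0343% ± 0.00633 in WT (SD, n = 8 each). In limma with class totals, mmu-miR-335-3p had a log2 difference of -0.59 with a 95% interval of -0.94 to -0.25 (limma p = 0.00180, exact permutation p = 0.00233), a fold of 0.664, and its adjusted p over all features was 0.9997.

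The share of mmu-miR-335-5p was 0.000744% ± 0.000279 in PS19 and 0.00134% ± 0.000644 in WT, with all 8 PS19 libraries below the WT median and a log2 difference of -0.73 (limma p = 0.0364, exact permutation p = 0.0499, adjusted p = 0.9997). The precursor row mmu-mir-335 had -0.62 on this scale (limma p = 0.0431, exact permutation p = 0.0401, adjusted p = 0.9997). With class totals 2 of the 7 miRNAs, both miR-335 arms, had an unadjusted p under 0.05, against 2.77% of the tested features and 5.07% of the 750 tested miRNA rows, and 0 of 7 an adjusted one. With the deposited size factors and array weights the count was also 2 of 7 (6.94% of the tested features), with library totals it was 1 of 7 (3.04%), and within the G libraries 1 of 7 (2.01%), and only arms of miR-335 were counted in these 3 settings. The arms come from 1 hairpin and are not independent members in that count.

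**Figure D2:**
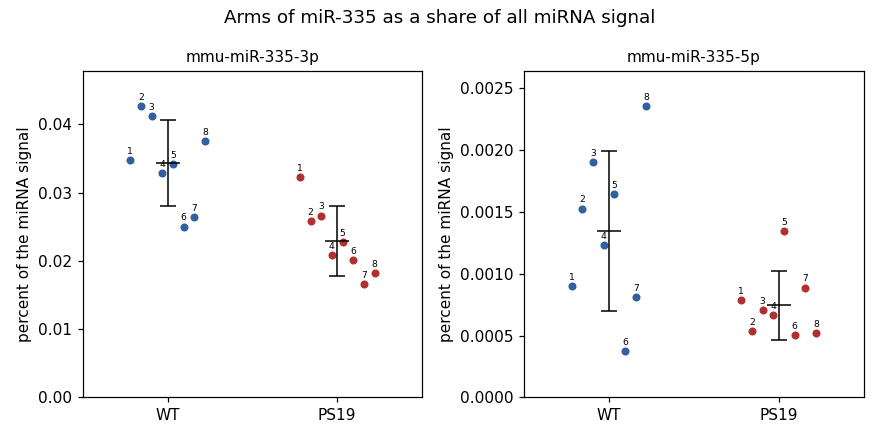
Share of all miRNA signal in percent (y axis, linear from 0) held by each arm of miR-335 in WT (blue) and PS19 (red) libraries, numbered by replicate, with the mean and SD (n = 8) in black. For the 3p arm, 5 of 8 PS19 libraries lie below the lowest WT library, and for the 5p arm all 8 PS19 libraries lie below the WT median.

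miR-129 differed little between genotypes in its main arm. mmu-miR-129-5p, which represses Kcna1, had a lowest, median and highest signal of 23073, 35911 and 67143 in PS19 and 18182, 33835 and 84272 in WT. The PS19 range lay within the WT range, with the PS19 median above the WT median. Means of 38577 ± 15720 in PS19 and 40622 ± 21306 in WT (SD, n = 8 each) gave a fitted fold of 0.986 with a 95% interval of 0.650 to 1.497 (log2 difference -0.02 ± 0.29, exact permutation p = 0.948). The sign of mmu-miR-129-5p turned under class totals, to 0.04, so no direction can be given for it. Its share of the miRNA signal was 0.866% ± 0.0997 in PS19 and 0.864% ± 0.220 in WT.

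The 3p arms were lower in abundance and had estimates further from 0. mmu-miR-129-2-3p spanned 218.0 through a median of 323.9 to 530.9 in PS19 and 174.7 through 478.7 to 729.7 in WT. In 6 of 8 PS19 libraries it lay below the WT median, and 3 WT libraries lay above every PS19 library. The log2 difference of mmu-miR-129-2-3p was -0.35 ± 0.28 (fold 0.784, 95% interval 0.524 to 1.17, limma p = 0.223, exact permutation p = 0.245). Without WT replicate 7 it was -0.54 (limma p = 0.0432, exact permutation p = 0.0485, adjusted p = 0.936). With class totals it was -0.30, where the tests lay on different sides of 0.05 (limma p = 0.0641, exact permutation p = 0.0109, adjusted p = 0.9997), and all 8 PS19 shares lay below the WT median and 4 below the lowest WT share.

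mmu-miR-129-1-3p spanned 64.9 through 179.3 to 350.1 in PS19 and 97.6 through 233.3 to 325.8 in WT. The highest library was a PS19 library and so were both of the lowest. Means of 187.3 ± 96.8 and 217.5 ± 86.6 gave a log2 difference of -0.29 ± 0.34 (fold 0.820, 95% interval 0.505 to 1.33, exact permutation p = 0.445). The precursor rows mmu-mir-129-1 and mmu-mir-129-2, with estimates of 0.11 and 0.17 (exact permutation p = 0.655 and 0.464), did not share the sign of the 3p arms. On the strand opposite to Mir129-2, mmu-miR-129b-5p and mmu-miR-129b-3p had 3 and 4 reads in all over the 16 libraries, and no comparison was made.

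mmu-miR-139-5p, known from work on NMDA receptor subunits, spanned 5017 through a median of 10032 to 32944 in PS19 and 5824 through 14542 to 30075 in WT. In 7 of 8 PS19 libraries it lay below the WT median, and PS19 replicate 1 was the highest library of all. Means were 12440 ± 8810 in PS19 and 15643 ± 8136 in WT (SD, n = 8 each). For mmu-miR-139-5p the log2 difference was -0.37 ± 0.36 (fold 0.772, 95% interval 0.463 to 1.29, limma p = 0.305, exact permutation p = 0.368), and without PS19 replicate 1 it was -0.61 (exact permutation p = 0.114). Its partner arm mmu-miR-139-3p, at 1879 ± 1246 in PS19 and 1719 ± 552 in WT, had a log2 difference of -0.03 ± 0.32 (exact permutation p = 0.942). The sign of mmu-miR-139-3p turned with class totals (0.03), DESeq2 (0.13) and edgeR (0.13), so no direction can be given for it. The precursor row mmu-mir-139 had -0.22 ± 0.30 (exact permutation p = 0.507).

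mmu-miR-324-5p, the miRNA known to repress Kcnd2, was barely measured. It had 9 to 34 reads per library, and the exact Poisson 95% interval of the lowest count runs from 4.12 to 17.1, which covers counting error only. Its signal spanned 10.4 through a median of 17.98 to 49.5 in PS19 and 8.91 through 22.1 to 34.6 in WT. The ranges overlapped, with PS19 replicate 1 above all WT libraries and the next PS19 library at 24.5. The log2 difference of mmu-miR-324-5p was -0.06 ± 0.32 (fold 0.961, 95% interval 0.608 to 1.52, exact permutation p = 0.867), and its sign turned when any 1 of 6 libraries was left out, so that no direction can be given. The precursor row mmu-mir-324 gave more signal than either arm, 25.8 ± 9.20 in PS19 and 36.0 ± 13.9 in WT (log2 difference -0.45 ± 0.27, exact permutation p = 0.108), while mmu-miR-324-3p stood at 10.95 ± 7.0 and 8.33 ± 4.0 (log2 difference 0.15, exact permutation p = 0.773). With class totals mmu-mir-324 had a log2 difference of -0.40 (limma p = 0.109, exact permutation p = 0.0314, adjusted p = 0.9997).

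**Figure D3:**
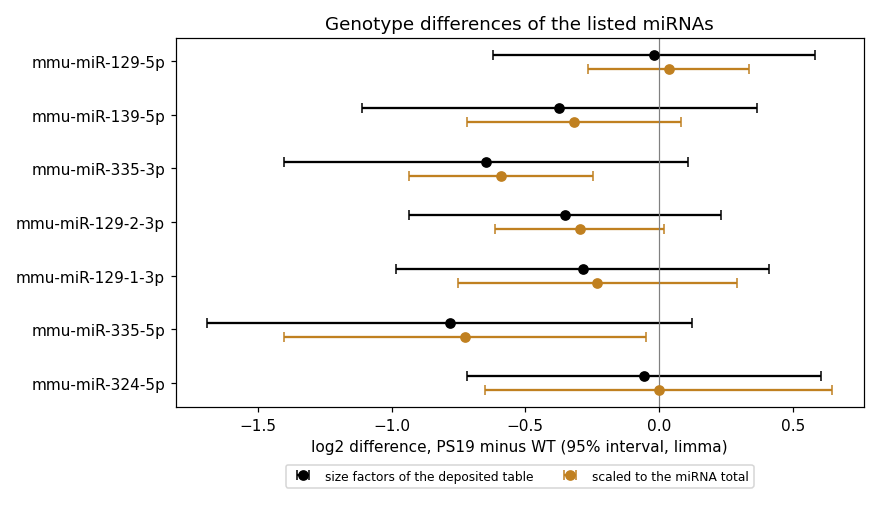
Log2 difference between PS19 and WT (x axis, below 0 is lower in PS19) with its 95% limma interval for each miRNA, ordered from the most to the least abundant, with the size factors of the deposited table (black) and with class totals (orange). All 7 black intervals cover 0, and the orange ones exclude it for both miR-335 arms only.

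The abundance order of the 7 was nearly the same in every mouse. All are 21 to 23 bases long where a sequence was at hand, so signal was compared without a length correction, although ligation in library preparation favours some RNA ends over others. From the top, mmu-miR-129-5p was followed by mmu-miR-139-5p, mmu-miR-335-3p, mmu-miR-129-2-3p, mmu-miR-129-1-3p, mmu-miR-335-5p and mmu-miR-324-5p. Each of the first 5 neighbouring pairs stood in this order in 16 of 16 libraries, with the smallest ratio at 1.30, between the 3p arms of miR-129. mmu-miR-335-5p exceeded mmu-miR-324-5p in 14 of 16 libraries, with ratios from 0.476 to 8.0, so these neighbours were not separated beyond their spread. By median rank among mature miRNAs, mmu-miR-129-5p stood at 20.5 and mmu-miR-139-5p at 43.0. All 7 together held 1.17% ± 0.145 of the miRNA signal in PS19 and 1.24% ± 0.284 in WT.

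Ratios within a library, which no library scaling moves apart from the added 1, gave no genotype difference that passed. The 3p arm of miR-335 exceeded the 5p arm 30.6-fold in PS19 and 27.8-fold in WT, with log2 ratios of 4.94 ± 0.54 and 4.80 ± 0.60 (SD, n = 8 each). The difference in the miR-335 ratio was 0.14 ± 0.29 (SE, two-sided exact permutation p = 0.638, adjusted over the 3 ratios 0.802). The highest and the lowest ratio were both in WT, in replicates 6 and 8. The arm that carries most miR-335 reads was therefore the 3p arm in all 16 libraries.

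For miR-129, mmu-miR-129-1-3p stood below mmu-miR-129-2-3p, with log2 ratios of -1.04 ± 0.53 in PS19 and -1.10 ± 0.47 in WT (difference 0.07 ± 0.25, exact permutation p = 0.802, adjusted 0.802). The summed 3p arms against the 5p arm gave -6.14 ± 0.23 in PS19 and -5.83 ± 0.58 in WT. This miR-129 arm ratio was 0.31 lower in PS19 on the log2 scale, a difference of -0.31 ± 0.22 (exact permutation p = 0.188, adjusted 0.563), and 7 of 8 PS19 libraries lay below the WT median. WT libraries covered a wider range, from -6.63 to -4.89, than PS19 libraries, from -6.54 to -5.83.

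**Figure D4:**
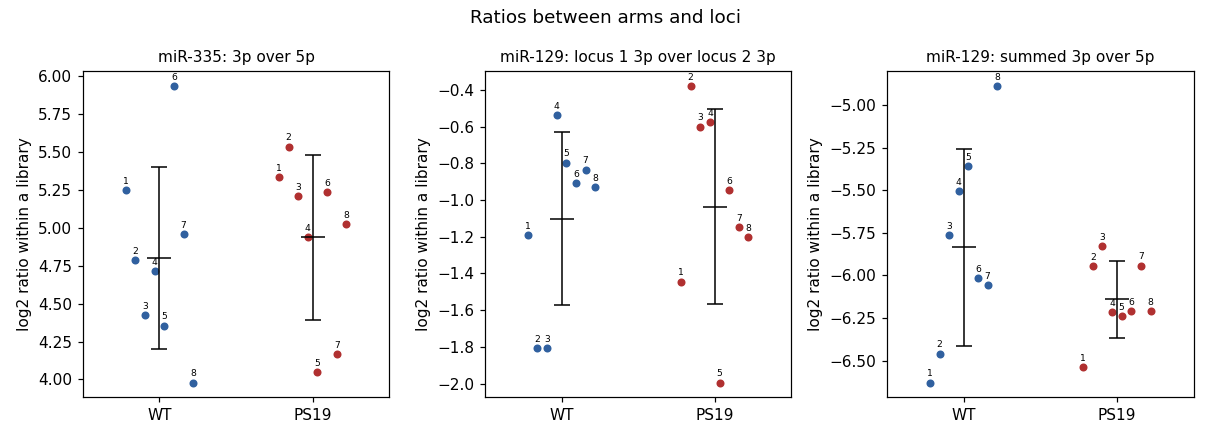
Log2 ratio within each library (y axis, not starting at 0) of the miR-335 arms (left), of the 3p arms of both miR-129 loci (middle) and of the summed miR-129 3p arms over the 5p arm (right), in WT (blue) and PS19 (red) libraries, numbered by replicate, with the mean and SD (n = 8) in black. The genotypes overlap in all 3 panels, with differences of means of 0.14, 0.07 and -0.31.

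Across the 16 libraries the 21 pairs of members had a Pearson r from 0.16 to 0.93 with a median of 0.67, and from -0.57 to 0.67 with class totals, where the median was close to 0. The lowest on the first scale were mmu-miR-129-1-3p with mmu-miR-324-5p at 0.16 and mmu-miR-324-5p with mmu-miR-335-5p at 0.27. The r on log2(signal + 1), a description over libraries that share their scaling, was 0.95 between mmu-miR-335-3p and its precursor row and 0.85 between the miR-335 arms, and it was 0.84 and 0.67 with class totals. Between mmu-miR-335-5p and the precursor row it was 0.77, and 0.49 with class totals. The pair mmu-miR-129-5p and mmu-miR-139-5p had an r of 0.84 that was 0.27 with class totals, and mmu-miR-129-5p and mmu-miR-129-2-3p went from 0.76 to -0.30. The 3p arms of miR-129 had an r of 0.75, and 0.33 with class totals.

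Among the 512 other mature miRNAs that were compared, the one most like mmu-miR-129-5p was miR-127-3p (r = 0.97, n = 16, and 0.80 with class totals). mmu-miR-335-3p was most like miR-493-5p (0.95 and 0.75) and miR-98-5p (0.95 and 0.77), and mmu-miR-335-5p was most like miR-342-3p (0.95 and 0.70) and miR-380-5p (0.95 and 0.87). mmu-miR-139-5p was most like miR-344-3p (0.96 and 0.90), mmu-miR-129-1-3p like miR-1a-3p (0.95 and 0.88) and mmu-miR-129-2-3p like let-7g-5p (0.95 and 0.65). For mmu-miR-324-5p the highest value was 0.80, with miR-431-3p. Likeness was ranked with the deposited size factors. For some members most of the nearest 3 changed with class totals or with the mean of each genotype subtracted. None of the members had another row that followed it with an r of at least 0.99 at a level within 2-fold.

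Other miRNAs known from excitability, plasticity or seizure work were taken from a list of 28, of which 27 passed the filter on low values and miR-219a-5p did not. By limma 1 of 27 was higher and 1 lower in PS19 at an unadjusted p under 0.05, against 4.0% of all tested features in either direction, and 0 of 27 passed after adjustment. Their median log2 difference was -0.08, with 17 of 27 below 0, against 53.2% of all tested features. Of the 750 tested miRNA rows 66.9% were below 0, with a median of -0.12. With class totals 14 of the 27 were below 0, against 58.7% of the miRNA rows. miR-155-5p, a miRNA of activated immune cells including microglia, had a signal of 82.5 ± 51.6 in PS19 and 44.3 ± 15.8 in WT (log2 difference 0.78 ± 0.30, limma p = 0.0167, exact permutation p = 0.0204, adjusted p = 0.9998). miR-184-3p stood at 235.8 ± 165.4 in PS19 and 520.1 ± 453.3 in WT (log2 difference -1.12 ± 0.52, limma p = 0.0439, exact permutation p = 0.0914, adjusted p = 0.9998). The 5 miRNAs of the neuron list had log2 differences of -0.32 (miR-137-3p), -0.24 (miR-138-5p), -0.13 (miR-9-5p), -0.09 (miR-124-3p) and 0.00 (miR-128-3p), and none passed.

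**Figure D5:**
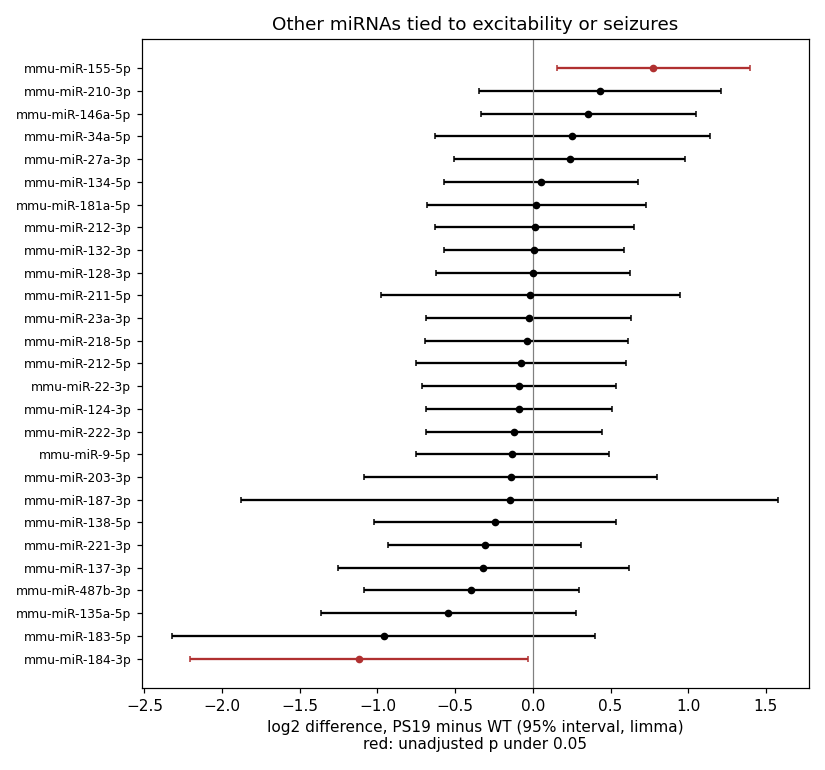
Log2 difference between PS19 and WT (x axis) with its 95% limma interval for the 27 tested miRNAs of the wider excitability list, red where the unadjusted p was under 0.05. miR-155-5p lies highest at 0.78 and miR-184-3p lowest at -1.12, and the other 25 intervals cover 0.

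Of the miRNA markers of other cells, the immune list had 1 of 2 tested members at an unadjusted p under 0.05 (4.0% of all tested features), miR-155-5p again, and a summed signal of 571 to 3013 in PS19 and 433 to 1539 in WT. The oligodendrocyte, vessel, red blood cell, choroid plexus, olfactory bulb, striatum or hindbrain and neuron lists had none. Summed signal had medians of 36709 in PS19 and 23942 in WT for the oligodendrocyte list, 33790 and 47501 for vessels, 915 and 984 for red blood cells, and 124.5 and 130.1 for striatum or hindbrain. The ranges of these lists overlapped between genotypes. The choroid plexus sum was 1191 to 19152 in PS19 libraries and 812.6 to 12937 in WT libraries, and the olfactory bulb sum was 34.6 to 580.0 in PS19 and 59.0 to 3345 in WT. In the lists, miR-144-3p, miR-141-3p and miR-196a-5p had a median of 0. The part of these cells in the miR-335 values was not tested.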

How the data were processed

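Small RNA from frozen prefrontal cortex was isolated with a Norgen kit, made into libraries with the NEBNext small RNA set and sequenced single-end. Per the labels, processing named mm10, STAR 2.5.3a and DESeq2 1.42.1, and per the study's methods the reads were annotated with COMPSRA. The authors deposited a normalized signal, namely read counts divided by 1 size factor per library, beside columns of their own fold changes and p-values, which were not used. Whole reads were recovered by dividing each library by its smallest value above 0, and 100% of the values came out whole within 0.02.

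Values were tested as log2(signal + 1) in limma 3.58.1 (lmFit, eBayes with trend, R 4.3.3) with genotype as the only term, for features with a mean of at least 5, and p-values were adjusted by Benjamini-Hochberg over 6024 features. A fold change on this scale understates the change of low features. Replicates are separate mice. Ratios were tested by exact permutation of the libraries. On simulated counts for this comparison with 6024 features, 95 of 200 changed ones were recovered, 79% of the ones with a log2 change of 2 and 16% of the ones with a log2 change of 1. Alternatives were DESeq2 1.42.0 and edgeR 4.0.16 on recovered reads, other scalings, filters and pseudocounts, array weights, the library letter, the replicate number as a block, and each library left out. Exact permutation tests with class totals, with G libraries only and with each library left out were added after seeing the data.

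Host genes are from GENCODE M21 and sequences from RefSeq. The members and lists were chosen with earlier results of these data known. All members, the other rows of their hairpins, the nearest 3 miRNAs of each by Pearson r and the listed miRNAs with the smallest p could be named.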

Additional observations from a re-analysis of the deposited data

Results flagged for a closer look

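In 2 of 20 group values examined, 1 library stood apart from the other 7 of its genotype by Dixon's criterion, where chance gives about 1. PS19 replicate 1 had a mmu-miR-139-5p signal of 32944, with the next PS19 library at 13975, a gap of 0.679 of the group's range. The same library had a mmu-miR-324-5p signal of 49.5, with the next at 24.5 and a gap of 0.639. It also had the highest PS19 signal for mmu-miR-129-5p, mmu-miR-335-5p and mmu-miR-335-3p, and the largest miRNA share of the PS19 libraries, 32.6%. Without it, the log2 difference was -0.61 for mmu-miR-139-5p (exact permutation p = 0.114) and -0.25 for mmu-miR-324-5p (exact permutation p = 0.396).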

How the results depend on the processing

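Each of the 7 miRNAs was recomputed under 29 alternatives, and an adjusted p under 0.05 was reached in none, the smallest being 0.580 for mmu-miR-335-3p and 0.643 for mmu-miR-335-5p. Both miR-335 arms, mmu-miR-129-2-3p, mmu-miR-129-1-3p and mmu-miR-139-5p were below 0 in 29 of 29. Not all of the 29 could move an estimate. The other filters and the replicate block return the main estimate by construction, and the library letter returns the within-G one. An unadjusted p under 0.05 was reached in 8 of these 29 alternatives by mmu-miR-335-5p, in 7 by mmu-miR-335-3p, in 1 by mmu-miR-129-2-3p and in none by the other 4. Of the 7, 2 were under 0.05 with class totals (2.77% of all features) and with array weights (6.94%), and 1 with DESeq2 (4.7%), edgeR (4.4%), library totals (3.04%) or G libraries only (2.01%). Leaving out 1 library gave 0 to 3 of 7 (3 without WT replicate 7, 2 without WT replicate 6, 1 without PS19 replicate 1) and 0 to 0 by adjusted p. Over the same fits 167 to 322 of all features had an unadjusted p under 0.05, with 322 of 6056 without PS19 replicate 1. mmu-miR-129-5p changed sign to 0.035 with class totals and 0.0041 with library totals, and ran from -0.16 to 0.15 with 1 library left out. mmu-miR-324-5p ran from -0.25 to 0.058, mmu-miR-335-5p from -1.11 to -0.61 and mmu-miR-335-3p from -0.83 to -0.49. The ratio of the miR-129 3p arms ran from -0.036 to 0.20, that of the miR-335 arms from 0.02 to 0.30 and that of the summed miR-129 3p arms to the 5p arm from -0.42 to -0.17.

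Among all features, 241 had an unadjusted p under 0.05. The count was 680 of 17088 without the filter, 136 of 2510 at a mean of at least 20, 418 with array weights, 124 with the library letter, 121 with G libraries only and 167 to 322 with 1 library left out. By adjusted p it was 0 in limma and 0 to 0 with 1 library left out, and 15 with DESeq2. The cause of these shifts was not tested, apart from the number of features tested under other filters.

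With the replicate number as a block, 2 of 7 and 419 of all features (6.96%) had an unadjusted p under 0.05, both of the 2 being miR-335 arms. The limma p was 0.0371 for the 5p arm (adjusted p = 0.698) and 0.00699 for the 3p arm (adjusted p = 0.580). Same-numbered libraries had correlations of 0.04 to 0.46, over 0.1 in 6 of 8 pairs, and 4 of 16 libraries correlated best with their own number. These values do not settle whether the numbers pair the mice, and the main fit treated the mice as unpaired. Depth limits mmu-miR-324-5p and mmu-miR-335-5p most, with 9 and 10 reads in their lowest libraries.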
